A study of Mus musculus with 4 samples.

Results

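The 10 genes described here lie around Sphk1 on mouse chromosome 11. They are Prpsap1 on one side of Sphk1, and Ube2o, Rhbdf2, Cygb, St6galnac2, BC018473, St6galnac1, Mxra7, Jmjd6 and Mettl23 on the other. Their entries were found by symbol in a table of 22672 named genes, and some of them were selected on steep differences in this same comparison, without a stated threshold. Their differences between genotypes are therefore given as a description, with no test. All 10 passed the filter on low counts, which left 12758 genes, but Cygb, BC018473 and St6galnac1 passed only through the libraries in which they were high.

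RNA was sequenced from gp100-reactive splenic T cells of Pmel mice, whose transgenic T cell receptor recognises a peptide of the pigment cell protein gp100. 2 libraries were labelled SphK1 -/-, from Pmel mice deficient in sphingosine kinase 1, and 2 were labelled WT control, from Pmel mice without that deficiency. The cells of all 4 libraries had the transgenic receptor and had been stimulated for 72 h with peptide at 1 µg/ml and IL-2 at 100 U/ml. The strain in which the allele was made, the exons it lacks, the breeding of the controls and whether libraries of a genotype came from separate animals are not stated. The p-values below thus measure only the spread between these libraries, which may be technical.

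Genes that sit next to each other on a chromosome share chromatin surroundings and are inherited together, so the neighbours of a targeted gene are commonly looked at beside it. The neighbours of Sphk1 have roles of several kinds. Prpsap1 encodes a regulatory subunit of the enzyme complex that makes phosphoribosyl pyrophosphate for nucleotide synthesis. Ube2o encodes a large ubiquitin-conjugating enzyme. Rhbdf2 encodes iRhom2, an inactive rhomboid protein needed for the maturation of the sheddase ADAM17, which releases TNF. Cygb encodes cytoglobin, a haem protein known mainly from fibroblasts and stellate cells. St6galnac1 and St6galnac2 encode sialyltransferases that add sialic acid to O-linked glycans. Jmjd6 encodes an oxygenase with a Jumonji domain, and Mettl23 encodes a methyltransferase-like protein. BC018473 is annotated as a noncoding antisense transcript.

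On GRCm38 (GENCODE release M21) the 10 genes span 383.4 kb, from the left end of Prpsap1 to the right end of Mettl23, with Sphk1 itself from 116530925 to 116536674 on the plus strand. The start of Prpsap1 lies at −36.7 kb, to the left of the Sphk1 start. Ube2o lies 1.06 kb beyond the right end of Sphk1, and its own start is 50.5 kb away. The other starts lie to the right at 96.1 kb for Rhbdf2, 123.4 kb for Cygb, 163.9 kb for St6galnac2, 221.2 kb for BC018473, 244.6 kb for St6galnac1, 297.1 kb for Mxra7, 312.4 kb for Mettl23 and 312.5 kb for Jmjd6. 8 of the 10 are on the minus strand. Only BC018473 and Mettl23 are on the plus strand, as Sphk1 is.

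RefSeq promoter windows of GRCm38.p6 (250 bases before to 50 after a start) were at hand for 4 of the 10 genes. They are shown because Mxra7, with a steep difference, and Jmjd6, with a small one, are neighbours separated by 9.4 kb, while Mettl23 starts head to head with Jmjd6 and Prpsap1 stands on the far side of Sphk1. The windows are chr11:116490297-116490596 for Prpsap1, chr11:116827997-116828296 for Mxra7, chr11:116843400-116843699 for Jmjd6, all on the minus strand, and chr11:116843265-116843564 for Mettl23 on the plus strand. Capitals mark CG dinucleotides in Prpsap1 and Mxra7, and the 165 bases that the windows of Jmjd6 and Mettl23 share on opposite strands.
Prpsap1: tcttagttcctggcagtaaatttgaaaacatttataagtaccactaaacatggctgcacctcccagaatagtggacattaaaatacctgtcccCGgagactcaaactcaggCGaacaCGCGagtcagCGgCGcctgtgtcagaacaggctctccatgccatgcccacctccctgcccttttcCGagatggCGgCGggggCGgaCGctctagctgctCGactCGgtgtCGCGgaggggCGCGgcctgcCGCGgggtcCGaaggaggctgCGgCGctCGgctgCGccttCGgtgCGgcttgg
Mxra7: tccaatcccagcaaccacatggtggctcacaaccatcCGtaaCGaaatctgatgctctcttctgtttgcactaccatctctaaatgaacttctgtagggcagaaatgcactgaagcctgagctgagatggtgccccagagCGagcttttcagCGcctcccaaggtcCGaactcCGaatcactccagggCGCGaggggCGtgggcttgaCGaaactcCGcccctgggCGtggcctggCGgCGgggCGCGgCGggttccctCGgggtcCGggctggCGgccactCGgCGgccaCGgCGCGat
Jmjd6: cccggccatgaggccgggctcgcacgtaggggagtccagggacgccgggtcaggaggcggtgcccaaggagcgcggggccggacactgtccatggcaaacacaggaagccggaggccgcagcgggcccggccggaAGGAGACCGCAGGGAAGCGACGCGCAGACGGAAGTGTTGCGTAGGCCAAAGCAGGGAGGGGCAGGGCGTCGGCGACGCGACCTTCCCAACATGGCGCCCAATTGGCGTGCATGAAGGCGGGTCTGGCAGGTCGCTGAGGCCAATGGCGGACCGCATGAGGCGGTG
Mettl23: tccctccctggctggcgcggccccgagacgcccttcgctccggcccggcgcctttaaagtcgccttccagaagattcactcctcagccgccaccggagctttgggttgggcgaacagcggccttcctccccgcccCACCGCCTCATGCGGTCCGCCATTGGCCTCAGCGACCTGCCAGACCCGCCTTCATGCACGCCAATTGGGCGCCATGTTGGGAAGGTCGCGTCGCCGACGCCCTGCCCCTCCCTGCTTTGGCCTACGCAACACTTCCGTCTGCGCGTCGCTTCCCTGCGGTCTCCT

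The 4 windows were alike in being rich in CG. They held 26 CG dinucleotides in Prpsap1, 25 in Mxra7, 33 in Jmjd6 and 32 in Mettl23, against a median of 7 over 32851 promoter windows of the same length. The pentamer CCAAT, searched on both strands, was found in Mxra7, Jmjd6 and Mettl23 and in 37.4% of all windows. Searched the same way, TATAAA was found in Prpsap1 alone of the 4 and in 13.6% of all windows, and CCGGAA in Jmjd6 alone and in 14.9%. CACGTG was in none of the 4 and in 7.15% of all windows. RefSeq places the starts of Prpsap1 (116490346) and Mettl23 (116843515) inside the genes as GENCODE draws them. The window of Mxra7 held the fewest CG dinucleotides of the 4 and, like those of Jmjd6 and Mettl23, a CCAAT.

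Reads of Sphk1, the targeted gene, were more numerous in the libraries labelled SphK1 -/-. SphK1 -/- 1 and 2 held 35 and 18 Sphk1 reads, against 2 and 4 in WT control 1 and 2. Both libraries labelled SphK1 -/- were higher than both labelled WT control. For this reason the groups are called by their labels throughout. A count over the whole gene does not show which exons were read, and the exons that the allele lacks are not stated. Exons of Gm29292 on the opposite strand cover 4.02% of those of Sphk1. Like Cygb, BC018473 and St6galnac1, Sphk1 passed the filter on low counts only through the libraries labelled SphK1 -/-. Its log2 fold change, SphK1 -/- over WT control, was 3.12 ± 0.66 (SE; edgeR quasi-likelihood test, adjusted p = 0.0233, n = 2 each). The call was lost with the DESeq2 Wald test (adjusted p = 0.0682), without SphK1 -/- 1 (0.239), without WT control 1 (0.162) and without WT control 2 (0.0746). Per kb of exon, Sphk1 was lower than 9 of the 10 flanking genes in the libraries labelled SphK1 -/- and overlapped Cygb.

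Library totals over named genes were 50406140 and 53500852 in the libraries labelled SphK1 -/- and 43642723 and 45760330 in those labelled WT control. The table also has 720 entries without a gene name, all of them empty in both libraries labelled SphK1 -/- and given a value, 0 included, in both labelled WT control. Whether both labels were counted on the same gene models is not stated, and its part in the on and off differences described here was not tested. A count of 3 reads, used as the limit of detection, equalled 0.0598 to 0.0639 CPM, which is the count scaled to library size with TMM factors. Over all genes, 765 were higher (6.00%) and 96 lower (0.752%) at an adjusted p under 0.05, and with library totals in place of TMM scaling 652 were higher and 1432 lower. T cell identity was plain in every library, since 8 markers of cytotoxic T cells summed to 3473 and 3635 CPM in the libraries labelled SphK1 -/- and to 3808 and 3877 CPM in those labelled WT control.

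The steepest differences formed a block of 4 adjacent genes, St6galnac2, BC018473, St6galnac1 and Mxra7. All 4 were below 1 CPM in both libraries labelled WT control, and stood between 9.18 and 151 CPM in those labelled SphK1 -/-. Together they held 9731 and 11411 reads in SphK1 -/- 1 and 2, against 38 and 52 reads in WT control 1 and 2. The block covers 152.7 kb from the left end of St6galnac2 to the right end of Mxra7.

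BC018473, the noncoding gene (116752167 to 116759373), had the widest gap. It held 5423 and 7346 reads (115 and 151 CPM) in SphK1 -/- 1 and 2, against 1 and 0 reads in WT control 1 and 2. Its level in the libraries labelled SphK1 -/- stood above that of 85.7% of all tested genes, whereas under the WT control label it stood above 0.314%. The ratio of group reads, scaled to library size, was 12979, with an exact 95% counting interval of 2329 to 512676. Like the other intervals here, it pools the reads of both libraries of a label and leaves out the spread between libraries. It covers counting error of reads alone, and PCR copies of a molecule could not be recognised.

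St6galnac1 (116765025 to 116775507), 5.65 kb to the right of BC018473, also had almost no reads under the WT control label. It held 1331 and 1579 reads (28.3 and 32.5 CPM) in SphK1 -/- 1 and 2, against 2 and 1 reads in WT control 1 and 2. Its ratio was 986, with a counting interval of 337 to 4784. The WT control reads lay under the limit of 3 reads in each library.

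St6galnac2 (116675303 to 116694868), the second sialyltransferase gene, was low but detected under the WT control label. It held 2521 and 2040 reads (53.6 and 42.0 CPM) in SphK1 -/- 1 and 2, against 20 and 29 reads (0.426 and 0.578 CPM) in WT control 1 and 2. Group means were 47.8 ± 8.22 CPM for SphK1 -/- and 0.502 ± 0.108 CPM for WT control (SD, n = 2 each), a log2 fold change of 6.56 ± 0.24 (SE). Per kb of exon, St6galnac2 stood at 0.782 and 0.534 times the level of St6galnac1 in SphK1 -/- 1 and 2, and at 4.13 and 12 times in WT control 1 and 2. The WT control ratios rest on 2 and 1 reads of St6galnac1, under the limit of 3 reads, and give no order of the 2 genes under that label.

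Mxra7 (116803062 to 116828046) closed the block on the right. It held 456 and 446 reads (9.70 and 9.18 CPM) in SphK1 -/- 1 and 2, against 15 and 22 reads (0.319 and 0.438 CPM) in WT control 1 and 2. Means were 9.44 ± 0.366 CPM for SphK1 -/- and 0.379 ± 0.0843 CPM for WT control (SD, n = 2 each), a log2 fold change of 4.63 ± 0.29 (SE).

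Cygb (116645595 to 116654313) lies 21.0 kb to the left of the block and was close to the limit of detection. It held 22 and 17 reads (0.468 and 0.350 CPM) in SphK1 -/- 1 and 2, against 1 and 1 in WT control 1 and 2, under the limit of 3 reads. The ratio was 19.8, with a counting interval of 5.13 to 169. The exons of Prcd on the opposite strand cover 8.62% of those of Cygb, and whether counting was stranded is not stated.

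**Figure D1:**
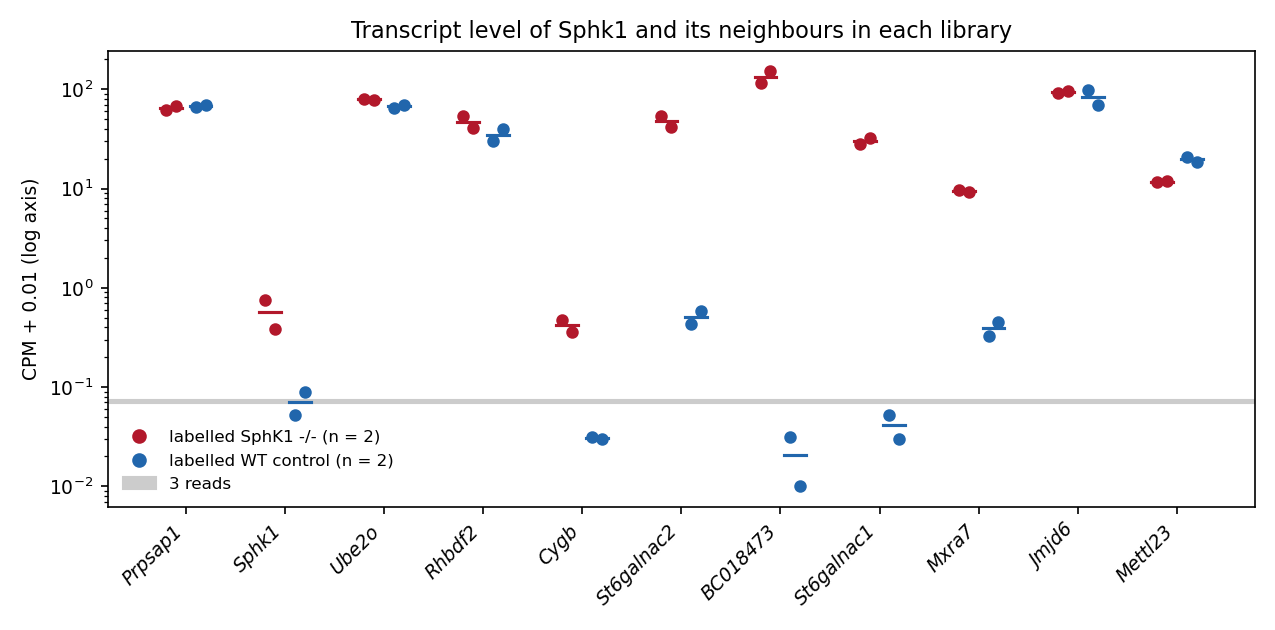
CPM plus 0.01 on a log axis for Sphk1 and the 10 flanking genes, in chromosomal order, with 1 point per library, a bar at each group mean and a grey band at the level of 3 reads. St6galnac2, BC018473, St6galnac1 and Mxra7 lie between 9.18 and 151 CPM in the libraries labelled SphK1 -/- and below 1 CPM in those labelled WT control, while Prpsap1 and Jmjd6 overlap between the labels.

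Outside the block and Cygb the genes were expressed under both labels, with log2 fold changes between −0.75 for Mettl23 and 0.45 for Rhbdf2. Prpsap1 (116470845 to 116494202) stood at 62.6 and 67.1 CPM in SphK1 -/- 1 and 2, against 65.8 and 69.5 CPM in WT control 1 and 2. The ranges overlapped, and the log2 fold change was −0.061 ± 0.11 (SE). Ube2o (116537740 to 116581447), the gene nearest to the right end of Sphk1, stood at 80.5 and 77.5 CPM in SphK1 -/- 1 and 2, against 65.2 and 70.0 CPM in WT control 1 and 2. Its ranges did not overlap, with a log2 fold change of 0.23 ± 0.11 that became −0.014 with library totals alone. Both genes next to Sphk1 thus had differences far smaller than those of the block.

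Rhbdf2 (116598165 to 116627019) was somewhat higher under the SphK1 -/- label. It stood at 53.6 and 41.1 CPM in SphK1 -/- 1 and 2, against 29.9 and 39.5 CPM in WT control 1 and 2. The lowest SphK1 -/- library was only just above the highest WT control library, and the log2 fold change was 0.45 ± 0.18 (SE). It was 0.24 without SphK1 -/- 1, 0.29 without WT control 1 and 0.21 with library totals alone. Rhbdf2 ends 18.6 kb before Cygb.

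Jmjd6 (116837432 to 116843449), the first gene beyond the block, did not share its pattern. It stood at 91.0 and 95.5 CPM in SphK1 -/- 1 and 2, against 97.5 and 69.6 CPM in WT control 1 and 2. The WT control libraries lay on both sides of those labelled SphK1 -/-, and the log2 fold change of 0.16 ± 0.16 (SE) became −0.079 with library totals alone and −0.058 without WT control 2, and was 0.45 without WT control 1. The spread of Jmjd6 under the WT control label, a log2 difference of 0.49 of library 1 over 2, was wider than the median absolute difference of 0.171 over all tested genes.

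Mettl23 (116843278 to 116854263), whose first exons overlap those of Jmjd6 over 172 bases, was the only one of the 10 with lower values in both libraries labelled SphK1 -/- and no overlap. It stood at 11.7 and 11.8 CPM in SphK1 -/- 1 and 2, against 21.0 and 18.4 CPM in WT control 1 and 2. Means were 11.7 ± 0.0698 CPM for SphK1 -/- and 19.7 ± 1.86 CPM for WT control (SD, n = 2 each), a log2 fold change of −0.75 ± 0.16 (SE). Per kb of exon, Jmjd6 was 4.48 and 4.65 times as high as Mettl23 in SphK1 -/- 1 and 2, and 2.66 and 2.17 times in WT control 1 and 2. Exons of Jmjd6, Srsf2 and Mfsd11 cover 33% of those of Mettl23, and 13% of its 30-base words also occur in Gm14127 on chromosome 2, so its counts are uncertain.

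In all, the ranges of the 2 labels did not overlap for 8 of the 10 genes, 7 higher and 1 lower in the libraries labelled SphK1 -/-, beside 44.8% of all tested genes. 6 of the 10 passed an adjusted p of 0.05 in the fit over all genes, 5 higher and 1 lower, beside 6.75% of all genes in either direction. Without SphK1 -/- 1, or without WT control 1, 4 of the 10 passed. With the DESeq2 Wald test in place of edgeR 5 of the 10 passed, and the call of Cygb was lost (adjusted p = 0.0584). In the fit over all genes with edgeR, 5 of the 10 had a log2 fold change over 3, beside 1.69% of all genes. The genes were chosen with these values known, and Cygb, BC018473 and St6galnac1 passed the filter only through the libraries labelled SphK1 -/-. These counts are therefore no test of the 10 genes, and nothing is read from them. The median log2 fold change was 2.30 over the 10 genes and −0.021 over all genes. This median is shaped by the same choice of genes, and nothing is read from it either.

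**Figure D2:**
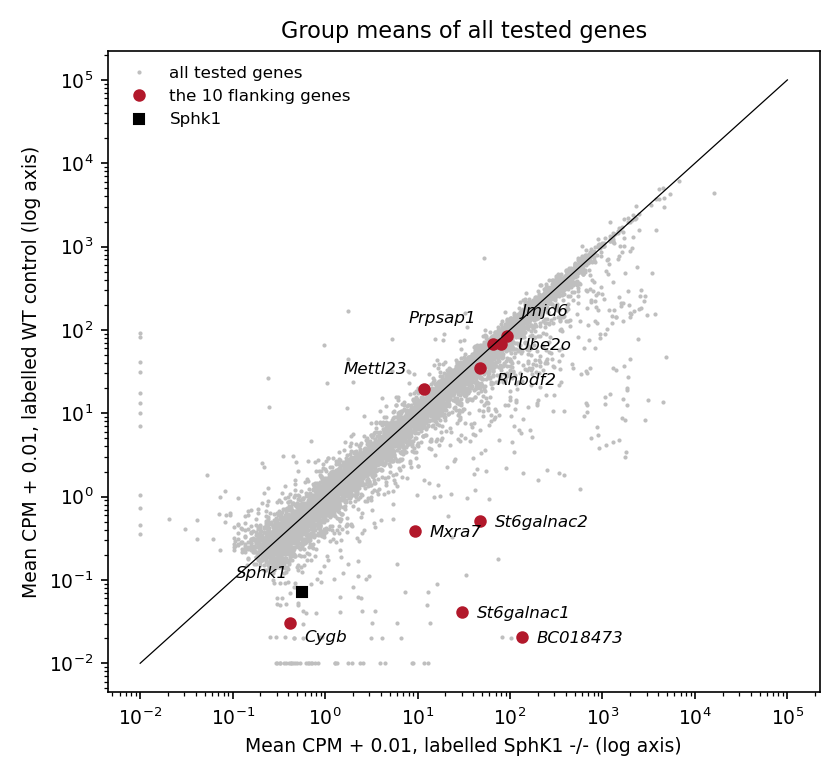
Mean CPM plus 0.01 of each tested gene in the libraries labelled SphK1 -/- (horizontal, log axis) against those labelled WT control (vertical, log axis), with the line of equal values; the 10 flanking genes are red, Sphk1 is a black square, and the 12758 tested genes are grey. BC018473, St6galnac1, St6galnac2 and Mxra7 lie far below the line, at 133, 30.4, 47.8 and 9.44 CPM for SphK1 -/-, and many other genes lie there too.

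Levels per kb of exon gave the order of the genes within each label. In the libraries labelled SphK1 -/-, BC018473 came first at 24.4 ± 4.64 CPM per kb, followed by Jmjd6 (19.85 ± 0.666), Prpsap1 (19.0 ± 0.946), Ube2o (14.9 ± 0.395) and St6galnac1 (12.7 ± 1.24; SD, n = 2 each). Rhbdf2 (8.94 ± 1.68) and St6galnac2 (8.26 ± 1.42) came next, then Mettl23 (4.349 ± 0.0259), Mxra7 (3.95 ± 0.153) and Cygb (0.1755 ± 0.0358). The ranges of Jmjd6 and Prpsap1 overlapped, as did those of Rhbdf2 and St6galnac2, and the other neighbours in this order were apart.

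In the libraries labelled WT control, Prpsap1 (19.86 ± 0.751 CPM per kb) and Jmjd6 (17.8 ± 4.19) overlapped at the top, followed by Ube2o (12.8 ± 0.641; SD, n = 2 each). Mettl23 (7.302 ± 0.691) and Rhbdf2 (6.555 ± 1.285) overlapped as well. A wide gap separated these from Mxra7 (0.1585 ± 0.0352) and St6galnac2 (0.0867 ± 0.0186). St6galnac1, Cygb and BC018473 had fewer than 3 reads in every WT control library and cannot be ordered. All 4 genes of the block lay below Prpsap1, Jmjd6, Ube2o, Mettl23 and Rhbdf2 under the WT control label. Under the SphK1 -/- label BC018473 lay above these 5 genes and Mxra7 below them, with St6galnac1 and St6galnac2 in between.

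Libraries of 1 label differed from each other far less than the labels did within the block. The log2 difference of SphK1 -/- 1 over 2 was 0.35 for St6galnac2, −0.39 for BC018473, −0.20 for St6galnac1 and 0.079 for Mxra7, beside a median absolute difference of 0.14 over all tested genes. In WT control 1 over 2 it was −0.44 for St6galnac2 and −0.46 for Mxra7, beside a median of 0.171. St6galnac2 was higher in SphK1 -/- 1, whereas BC018473 and St6galnac1 were higher in SphK1 -/- 2, so the genes of the block did not all follow the same library.

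Along the wider neighbourhood the differences were uneven. Of 97 annotated genes with a start within 1 Mb of the Sphk1 start, 57 matched a named entry and 51 were tested. Of the 51, 9 were higher and 1 was lower at an adjusted p under 0.05, or 19.6%, beside 6.75% of all tested genes. A log2 fold change over 3 was found in 7 (13.7%), beside 1.69% of all tested genes. 6 of the calls were among the 10 genes, which were chosen with these values known. Setting aside the 10 genes and Sphk1, 3 of 40 tested genes were called, beside 6.75% of all tested genes. Of the 40, 32 had an absolute log2 fold change under 0.5. The block, Cygb and Sphk1 were the only genes within 0.5 Mb with a log2 fold change over 3.

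**Figure D3:**
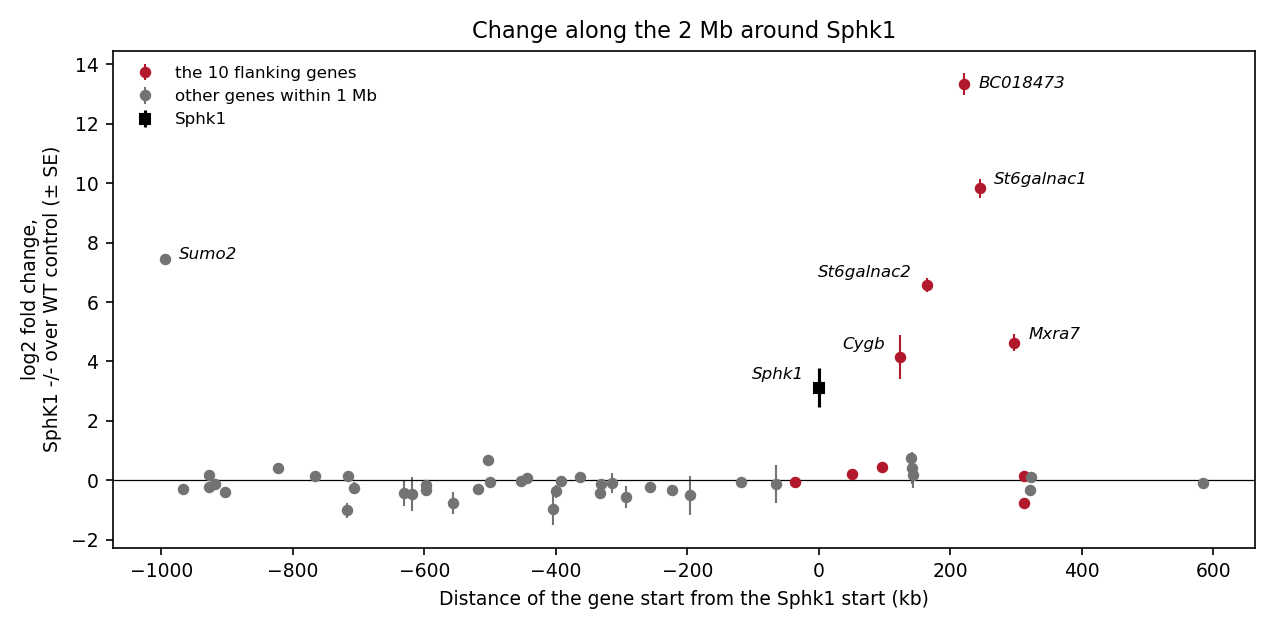
Log2 fold change, SphK1 -/- over WT control, of the 51 tested genes within 1 Mb (vertical, bars are SE) by the distance of the gene start from the Sphk1 start in kb (horizontal); the 10 flanking genes are red and Sphk1 is a black square. Apart from Sphk1 itself, the log2 fold changes over 3 stand between 123.4 and 297.1 kb to the right of Sphk1 and at Sumo2, at −994.6 kb.

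The called genes outside the list were Sumo2, H3f3b and 1810032O08Rik. Sumo2, which encodes a small ubiquitin-like modifier, lies near the edge of the window. Its log2 fold change was 7.44 ± 0.16 (SE, edgeR adjusted p = 4.86e-08). It stood at 314.9 and 355.3 CPM in SphK1 -/- 1 and 2, against 1.79 and 2.05 CPM in WT control 1 and 2. It shares 22.8% of its 30-base words with other genes. H3f3b, a gene of histone H3.3, stood at 713 and 753 CPM in SphK1 -/- 1 and 2, against 493 and 413 CPM in WT control 1 and 2, and rose by 0.69 ± 0.13 (edgeR adjusted p = 0.0142), with 11.5% shared words. Its call was lost without SphK1 -/- 2 (0.0564).

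1810032O08Rik, named Snhg16 by RefSeq and host to small nucleolar RNAs, lies between Cygb and St6galnac2. It stood at 37.2 and 38.8 CPM in SphK1 -/- 1 and 2, against 25.5 and 20.1 CPM in WT control 1 and 2, and rose by 0.74 ± 0.15 (edgeR adjusted p = 0.0191). The call was lost without SphK1 -/- 2 (0.0699) and with library totals alone (0.0537). Exons at its right end overlap the 3′ end of St6galnac2 over 497 bases on the opposite strand, which is 8.58% of the exons of St6galnac2. How reads of this stretch were assigned is not stated.

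The 5 nearest protein-coding genes to the left of Sphk1 were Prpsap1, Qrich2, Ubald2, Rnf157 and Foxj1. All but Ubald2 were tested, and none of those tested had a called difference. Qrich2 held 25 and 7 reads in SphK1 -/- 1 and 2, against 13 and 23 in WT control 1 and 2, so its libraries overlapped. Rnf157, a ring finger gene, had a log2 fold change of −0.071 ± 0.12 (edgeR adjusted p = 0.842) and Foxj1, a forkhead factor of ciliated cells, −0.51 ± 0.65 (0.791). Ubald2 held 2 and 4 reads in SphK1 -/- 1 and 2, against 1 and 0 in WT control 1 and 2, and did not pass the filter on low counts. To the right, Aanat, the enzyme of melatonin synthesis, held 1 and 0 reads in SphK1 -/- 1 and 2, against 3 and 3 in WT control 1 and 2. Prcd, listed under the name Gm11744, held 14 and 0 reads in SphK1 -/- 1 and 2 and none in the WT control libraries. Aanat and Prcd did not pass the filter either and were not tested. Of the genes whose exons overlap those of Mettl23, Srsf2 (0.11 ± 0.14; adjusted p = 0.777) and Mfsd11 (−0.31 ± 0.17; 0.471) showed no called difference in edgeR.

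A run of 4 adjacent tested genes that all had a log2 fold change over 3 occurred at a single place among the 12295 tested genes with a position. That place was the block of St6galnac2, BC018473, St6galnac1 and Mxra7. The other runs of this kind were 10 pairs, among them Rpl28 with Ube2s and Ncoa4 with Timm23. Since the block was known when this count was made, the count is a description of the table.

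Sequence shared with other genes differed within the block. St6galnac1 shares 43.8% of its 30-base words with other annotated genes, mostly with Gm11735, and its counts are therefore uncertain. Gm11735 is an unprocessed pseudogene between St6galnac2 and BC018473 and is not analysed here. St6galnac2 shares 0.139%, BC018473 1.2% and Mxra7 1.72% of their words, and Cygb shares none. No exon of BC018473, St6galnac1 or Mxra7 is covered by another annotated gene. In 8 of the 10 genes at most 5% of the words were shared, and among those of the 10 with a log2 fold change over 3 only St6galnac1 was above that share. Copies outside annotated transcripts were not searched.

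**Figure D4:**
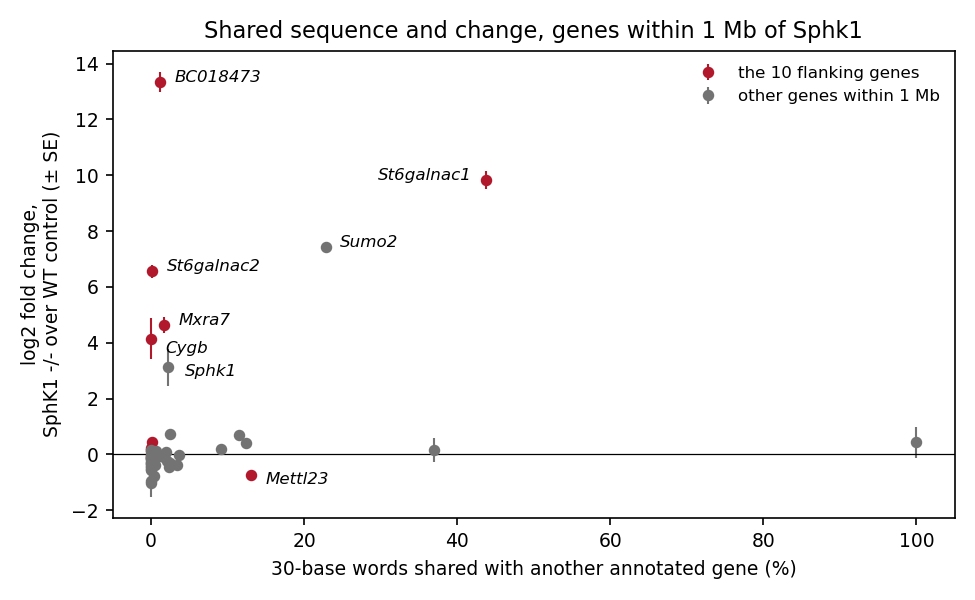
Share of a gene's 30-base words that occur in another annotated gene (horizontal, percent) against the log2 fold change, SphK1 -/- over WT control (vertical, bars are SE), for the tested genes within 1 Mb of Sphk1, with the 10 flanking genes in red. 2310067B10Rik, annotated as Tmem94, was tested but is not shown. BC018473, St6galnac2, Mxra7 and Cygb combine high changes with under 2% shared words, whereas St6galnac1 stands at 43.8%.

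Markers of other cell types were also higher in part of the libraries labelled SphK1 -/-. 6 B cell markers summed to 366.5 and 173.7 CPM in SphK1 -/- 1 and 2, against 172.1 and 181.4 CPM in WT control 1 and 2, and Cd79a was the only called member. 4 dendritic cell markers summed to 9.23 and 5.99 CPM in SphK1 -/- 1 and 2, against 2.62 and 3.45 CPM in WT control 1 and 2, with Flt3 called. The 5 macrophage markers found summed to 24.7 and 15.5 CPM in SphK1 -/- 1 and 2, against 9.026 and 11.04 CPM in WT control 1 and 2, with Cd68 called. 5 natural killer cell markers summed to 200.4 and 219.8 CPM in SphK1 -/- 1 and 2, against 176.2 and 148.9 CPM in WT control 1 and 2, with none called and Klra8 at 0 throughout.

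3 helper T cell markers summed to 80.7 and 57.1 CPM in SphK1 -/- 1 and 2, against 83.1 and 74.4 CPM in WT control 1 and 2, with none called. 5 stromal markers summed to 4.999 and 2.92 CPM in SphK1 -/- 1 and 2, against 1.107 and 1.375 CPM in WT control 1 and 2, with Col1a2 called and Col1a1 and Col3a1 below 1 CPM in every library. Erythroid and neutrophil markers summed to less than 1 CPM in every library. The B cell, dendritic, macrophage and stromal sums were highest in SphK1 -/- 1, while the natural killer cell sum was highest in SphK1 -/- 2 and the helper T cell sum in WT control 1. The part of these markers in the differences of the 10 genes was not tested, and in bulk RNA a change in the number of cells of a type cannot be told apart from a change in RNA per cell.

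By the smallest Euclidean distance between centred log2 values (CPM plus 0.5) over the 4 libraries, the genes most like BC018473 were Rpl21 (distance 0.344), Rpl24 (0.362) and Rps6 (0.444), on chromosomes 5, 16 and 4. These are ribosomal protein genes, and their log2 fold changes were 8.31, 8.04 and 7.76. Differences in the range of the block thus also occurred on other chromosomes. Whether the differences of these genes and of Sumo2 arose in expression or in the gene models counted under each label was not tested. The genes most like Mettl23 were Snord16a (0.0592), Stk39 (0.0621) and Pmvk (0.0623), on chromosomes 9, 2 and 3. With 2 libraries per label this likeness mainly reflects the size of the difference between the labels.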

How the data were processed

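Per the file headers and the labels, the deposited table holds raw counts per gene in 4 columns, 1 for each library. Build GRCm38 is listed in the submitters' processing notes together with HTSeq 0.6.1p1, TopHat2 2.0.13, DESeq2 1.14.1 and cutadapt 1.11, without their roles. Which gene models were counted, whether strand was used and how multiply matching reads were treated is not given in the sources used here. 720 entries without a name and 27 with a date for a name were left out; together they held 0.262% and 0.261% of the counts in SphK1 -/- 1 and 2, and 1.43% and 1.48% in WT control 1 and 2. Genes were compared with edgeR 4.0.16 in R 4.3.3 using TMM scaling, a filterByExpr minimum of 10 counts and the quasi-likelihood test, with p-values adjusted by Benjamini-Hochberg over 12758 genes and called below 0.05; the fit was checked on simulated counts. Each SE was obtained by dividing the size of the log2 fold change by the root of its F. DESeq2 1.42.0 and limma 3.58.1 (voom) served as alternatives, with other scalings, no filter, a replicate block and each library left out. Positions, exon lengths, overlaps and 30-base words came from GENCODE M21, also GRCm38. Genes named besides the 10 are the 5 nearest protein-coding genes on each side, called genes within 1 Mb, overlapping genes and the 3 genes most like the extremes; Srsf2 and Mfsd11 overlap Mettl23, and the paired runs were picked as examples after their values were seen. The 10 genes, lists and windows were chosen with earlier results of these data known.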

Additional observations from a re-analysis of the deposited data

How the results depend on the processing

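The log2 fold changes of the 10 genes were recomputed under 11 alternatives. Those of St6galnac2 ranged from 6.32 to 6.81, of Mxra7 from 4.39 to 4.88, of Cygb from 3.75 to 4.34, of Rhbdf2 from 0.21 to 0.67, of Prpsap1 from −0.30 to −0.010 and of Mettl23 from −0.99 to −0.62, and none of these changed sign. The fitted values of BC018473 (12.45 to 15.67) and St6galnac1 (9.40 to 10.43) rest on 1 and 3 WT control reads in all. Ube2o and Jmjd6 changed sign with library totals alone, and Jmjd6 without WT control 2, as given above. Library totals alone moved the median over all genes from a log2 fold change of −0.021 to −0.261, raised the genes that were lower from 96 to 1432 and the called genes within 1 Mb from 10 to 17. Called were 6 of 15 tested genes within 0.25 Mb of the Sphk1 start. Within 0.5 Mb 8 of 31 were called, and within 2 Mb 15 of 89. These counts include called genes among the 10, and 6.75% of all tested genes were called. With the replicate block 942 genes were higher and 178 lower, with 12 called within 1 Mb; the numbers are not taken to pair the libraries, since the labels name no shared source and the differences between libraries 1 and 2 of the 2 labels correlated at −0.0509 over genes. Leaving out each library in turn gave 87 to 230 lower genes, the highest without WT control 2, and 7 or 8 called genes within 1 Mb. The cause was not tested. 2 libraries per label, and 1 to 4 reads of several genes under the WT control label, limit the precision.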

Other observations

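An entry without a gene name stood between the rows of Mgat5b and Sec14l1, both annotated to the right of Mettl23. Like all 720 entries without a name in the table, it had no value in either library labelled SphK1 -/-, and it held 832 and 762 reads in WT control 1 and 2. Among named rows on 1 chromosome, 98.8% of adjacent pairs stood in the order of their annotated starts. Mgat5b itself, a glycosyltransferase gene, held 0 reads in all 4 libraries. Sec14l1, a lipid-binding protein gene, had a log2 fold change of −0.097 ± 0.12 (SE; edgeR adjusted p = 0.791).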
